A study of Mus musculus with 25 samples.

Results

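The comparison is between liver of Mcl-1 knockout mice at 12 months and at 2 months of age. The 12-month samples are the 4 pieces labelled as liver tissue outside the tumor (animals 1109, 638, 702 and 793), and the 2-month samples are 3 knockout livers (animals 137, 64 and 69). Members were taken from the sample titles alone, which gave 7 arrays of the 25 in the series. All 7 mice carry a deletion of Mcl-1 in hepatocytes (knockout, marked ff in the sample names) and were left untreated. The labels name no Cre line and no sex. The 4 older mice each also gave a tumor sample labelled as hepatocellular carcinoma (HCC), so the 12-month tissue comes from tumor-bearing livers and the 2-month tissue does not. RNA was extracted with Trizol from full liver homogenate, labelled with Cy3 and hybridised to 1-colour Agilent arrays. The wild-type mice of 2 months (n = 2) and 12 months (n = 3), the hemizygous mice of 2 months (n = 3) and non-tumor liver of knockout mice of 8 months (n = 3) served as reference levels and in the shared estimate of the spread.

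Mcl-1 is an anti-apoptotic member of the BCL-2 family that holds the pro-apoptotic proteins Bak and Bax in check. Hepatocytes without it die more readily, and the liver answers with regeneration and chronic injury, a setting in which tumors can form. In chronically injured liver, lymphocytes, macrophages, duct-like progenitor cells and matrix-producing stellate cells can accumulate beside the hepatocytes. Because whole tissue was measured, more cells of a type and more RNA per cell cannot be told apart in any result below.

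Levels are log2 processed signals minus the 75th percentile of their array, so 0 is the level of the array's 75th percentile and a difference of 1 is a doubling. A gene is represented by its brightest probe. On the 7 arrays 61.1% to 70.5% of probes were well above background. Wild-type animal 641 at 12 months stood apart in the shared model, with 84.9% of its probes well above background against 60.3% to 73.1% on the other 17 arrays without tumor tissue. Among the 12-month knockout arrays, the lowest correlation with another array of the group over all genes was 0.94 to 0.96. The signal of Xist, the RNA that coats the silenced X of female cells, cleared background on 1 of 3 arrays at 2 months (animal 69) and 2 of 4 at 12 months (animals 638 and 793). The arrays of the 7 mice lay on 4 slides, none of which held knockout arrays of both ages, so slide and age cannot be told apart in a fixed block.

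Alb, the gene of serum albumin and the defining hepatocyte transcript, lay at 9.85 to 10.15 at 2 months and at 8.96 to 9.96 at 12 months, so the labelled tissue carries its hepatocyte marker in both groups. Mcl1 itself (GRCm38.p6 chromosome 3, 95656944 to 95663179) was measured at 1.84, 1.53 and 2.09 in animals 137, 64 and 69 at 2 months. At 12 months it stood at 2.82 in animal 1109, 2.39 in 638, 2.54 in 702 and 2.73 in 793. All 4 older livers lay above all 3 younger ones, and all 7 lay below the wild-type arrays, whose means were 4.26 at 2 months and 4.28 at 12 months. The difference between the knockout ages was 0.80 (SE 0.31, limma adjusted p = 0.23). A second Mcl1 probe differed by 1.06 in the same direction. Non-tumor liver of 8 months had a mean of 2.53.

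Across all genes, 2 of 27106 passed an adjusted p of 0.05 in the limma model of 18 arrays, which is 0.00738% of genes tested, and both were lower at 12 months. At an unadjusted p under 0.05 there were 1900 genes higher (7.01%) and 2788 lower (10.3%). The 12-month and 2-month arrays did not overlap for 1781 genes that were higher (6.65%) and 3657 that were lower (13.7%). The count of genes past the threshold depended strongly on which arrays set the spread. A model of the 7 knockout arrays alone called 189 genes higher (0.84% of 22491) and 1135 lower (5.05%), but 0 genes without animal 64 or without animal 69, and 0 after normexp background correction with quantile normalisation. Without wild-type animal 641 the shared model called 103 genes higher and 777 lower, and without knockout animal 638 it called 374 higher and 470 lower. The median difference over all genes was -0.07, and it was 0.25 when arrays were centred on their median instead of their 75th percentile. With that centring the 7-array model called 209 higher and 359 lower.

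**Figure D1:**
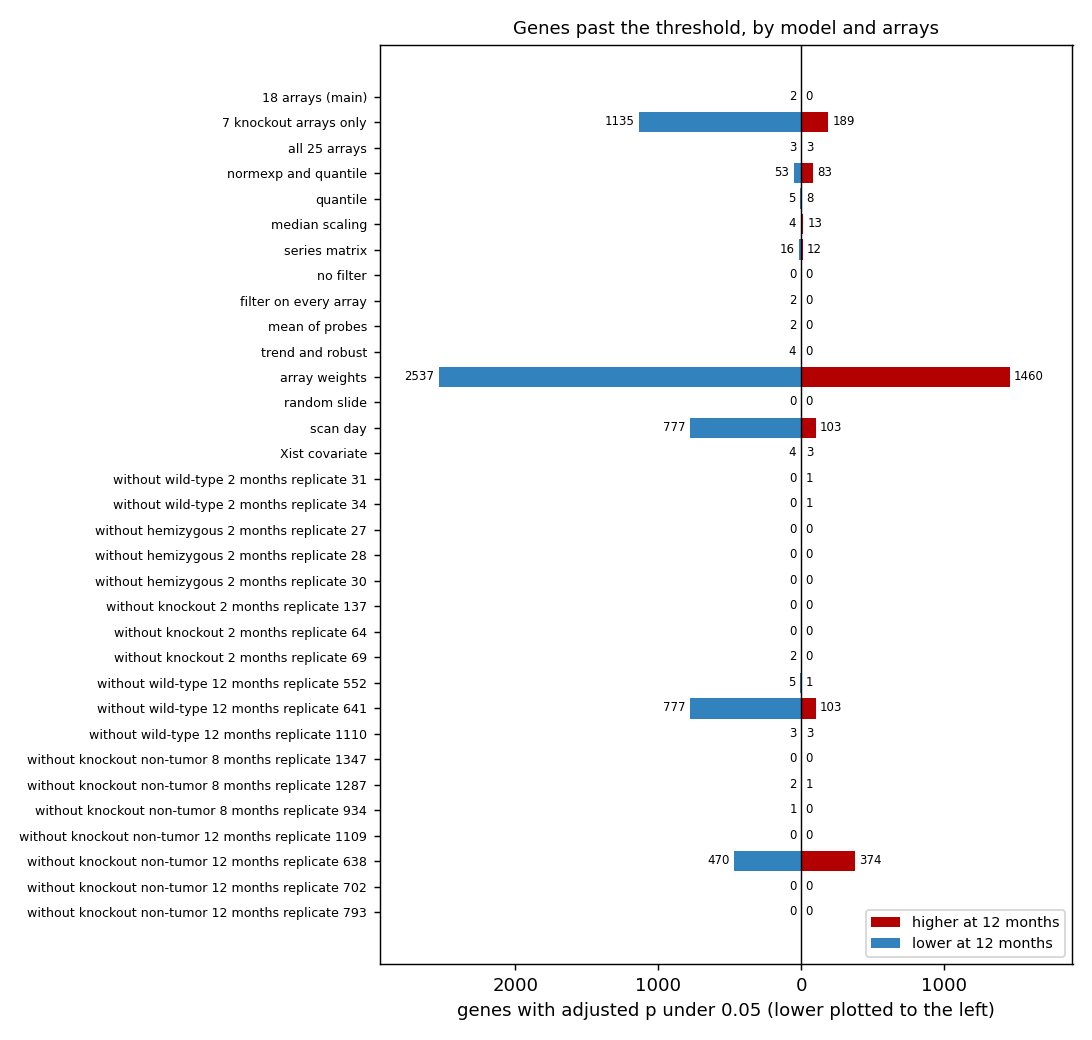
Number of genes with an adjusted p under 0.05 for knockout liver at 12 against 2 months, higher (right, red) and lower (left, blue), under the 18-array model and each alternative. The 18-array model calls 0 higher and 2 lower; the 7 knockout arrays alone call 189 and 1135, and leaving out wild-type animal 641 or knockout animal 638 raises the shared model's count to 880 and 844.

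The 1135 genes called lower by the 7 arrays alone were mostly dim. Their median level was -4.10, against -1.29 for all 22491 genes tested there, and 53.4% of them had a gene symbol, against 62.4%. Their median difference in wild-type mice of 12 against 2 months was -1.12. The 189 genes called higher had a median level of -3.78 and a median wild-type difference of 0.10. These are properties of the called genes and carry no test. The log2 75th percentile that was subtracted was 9.03, 9.49 and 9.14 in animals 137, 64 and 69. It was 9.71, 9.15, 9.82 and 9.60 in animals 1109, 638, 702 and 793. What part of the calls among dim genes follows from this scaling was not tested.

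Igf2bp3 fell with age in knockout liver. It encodes an RNA-binding protein of fetal tissues that binds Igf2 mRNA among others, and it is often re-expressed in liver cancer (GRCm38.p6 chromosome 6, 49085218 to 49215469). Its level was -2.42, -1.51 and -1.39 in animals 137, 64 and 69 at 2 months. At 12 months it was -7.70, -7.43, -6.37 and -6.27 in animals 1109, 638, 702 and 793. The probe was well above background on 3 of 3 younger arrays and on 0 of 4 older ones, so the drop is given as a bound. The 2-month level was at least 14.96-fold higher than the 12-month level, set against the lowest signal that counts as above background. The fitted difference was -5.17 (SE 0.70, limma adjusted p = 0.048). The other 2 Igf2bp3 probes differed by -4.91 and -4.12. The difference was -1.32 after normexp correction with quantile normalisation. Wild-type liver differed in the same direction, from a mean of -3.09 to -7.05, and the difference between genotypes was -1.21 (SE 1.09, limma adjusted p = 0.72).

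C4a also fell. It encodes a complement component C4 form of the mouse and lies beside its near-identical copy C4b on chromosome 17 (34809092 to 34823460), so the 2 genes may share signal and the value is uncertain. C4a stood at -2.81, -2.64 and -3.65 in animals 137, 64 and 69. At 12 months it stood at -5.91 in animal 1109, -5.22 in 638, -5.20 in 702 and -5.20 in 793. The groups did not overlap, and 2 of 4 older arrays were well above background. The difference was -2.35 (SE 0.32, limma adjusted p = 0.048), and it ranged from -2.66 to -0.48 over the alternatives, smallest after normexp correction with quantile normalisation. C4b, on its own probe, differed by -0.51 (SE 0.29, limma adjusted p = 0.37). In wild-type mice C4a differed by 0.77 with age, and the difference between genotypes was -3.11 (SE 0.50, limma adjusted p = 0.14).

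Both calls were narrow. Igf2bp3 passed under 16 of 31 alternatives and C4a under 12 of 31. All genes named from here on missed the threshold in the 18-array model unless stated, and their values are given as measured. The genes were taken by smallest p among those whose 7 arrays separated the ages.

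**Figure D2:**
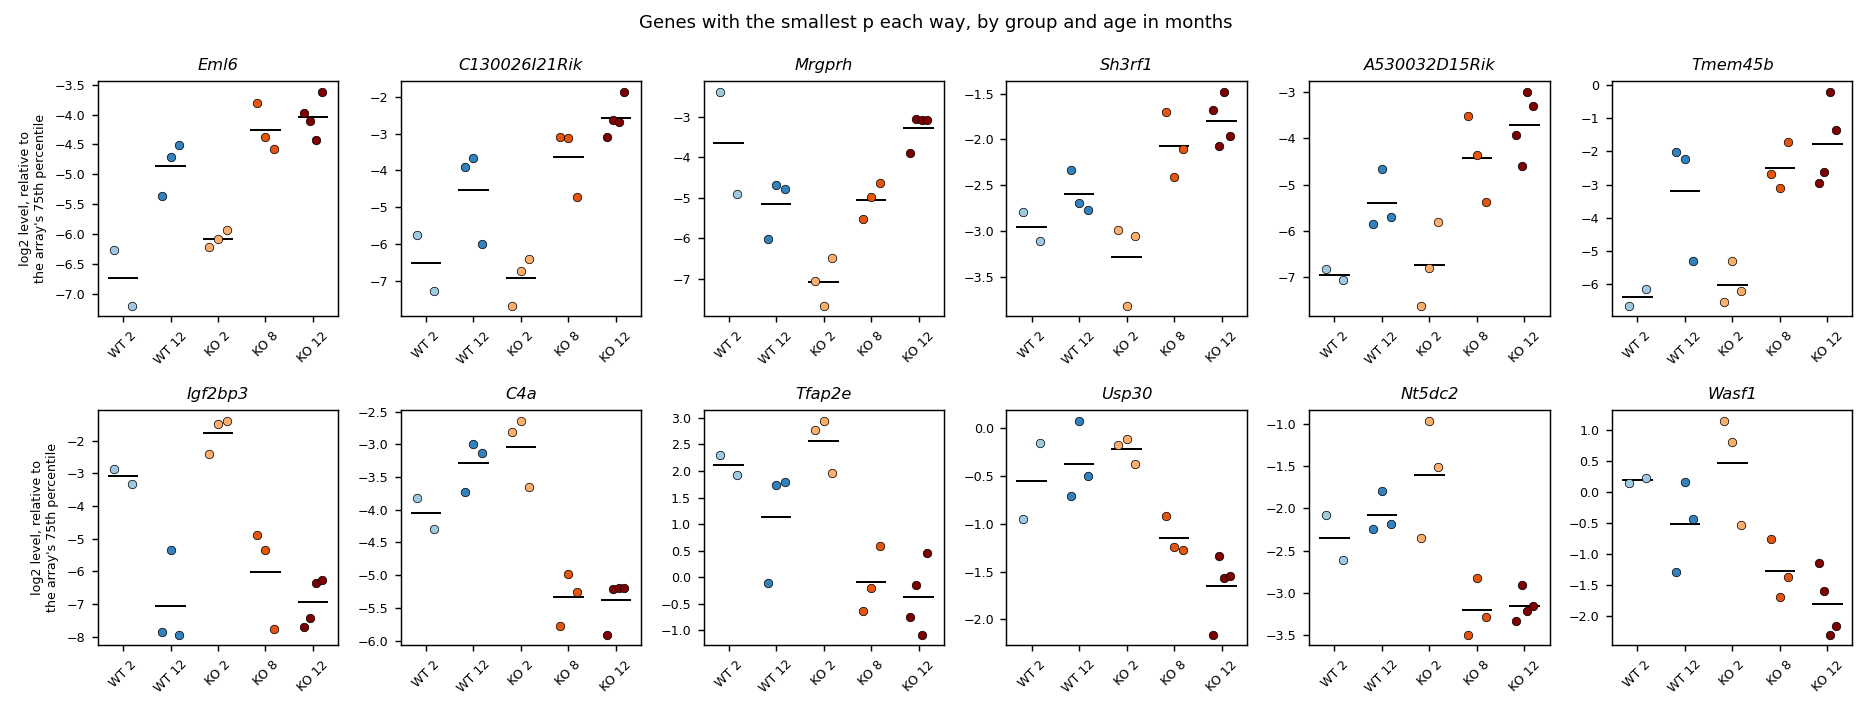
Log2 level relative to the array's 75th percentile for the 6 genes with the smallest p in each direction, one dot per mouse and a bar for the group mean, in wild-type (WT) and knockout (KO) liver at 2, 8 and 12 months. In all 12 panels the KO 12 dots lie apart from the KO 2 dots; in Igf2bp3, Eml6 and Tmem45b the older wild-type mice are displaced in the same direction.

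Of the 15 named genes that were higher at 12 months, 6 were well above background on no 2-month array and on all 4 older ones: Eml6, C130026I21Rik, Mrgprh, A530032D15Rik, Tmem45b and Fosb. Eml6, a gene of the microtubule-associated EMAP-like family, read -6.22, -6.09 and -5.94 in animals 137, 64 and 69 at 2 months. In animals 1109, 638, 702 and 793 at 12 months it read -3.97, -4.11, -4.42 and -3.62. It was thus at least 3.61-fold higher at 12 months (difference 2.05, SE 0.31, limma adjusted p = 0.063), and it differed by 1.88 in wild-type mice. C130026I21Rik (85241286 to 85282883) and A530032D15Rik (85088139 to 85110297) are neighbouring loci of chromosome 1. C130026I21Rik was at least 10.01-fold higher (limma adjusted p = 0.063), with 12-month levels of -3.08, -2.62, -2.69 and -1.86 against -7.67, -6.73 and -6.40. A530032D15Rik was at least 4.40-fold higher (limma adjusted p = 0.12). Tmem45b, a transmembrane protein gene, was at least 15.7-fold higher (limma adjusted p = 0.13). Its 12-month levels spread from -2.95 in animal 1109 to -0.19 in animal 702, all above the highest 2-month level of -5.31. Tmem45b also differed by 3.23 between the ages in wild-type mice. Mrgprh, an orphan G protein-coupled receptor gene, was at least 6.09-fold higher (limma adjusted p = 0.12). Wild-type mice of 2 months read -2.39 and -4.90 for it, so that the knockout difference of 3.79 stood against -1.52 in wild-type.

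Brighter genes of the same rank had smaller differences. Anxa13, an annexin of epithelial cells, read -1.75, -2.40 and -2.70 in animals 137, 64 and 69. At 12 months it read 0.38 in animal 1109 and -0.79 in both 638 and 793, with 702 between them, all above the younger livers. The difference was 1.98 (SE 0.41, limma adjusted p = 0.19), and 0.95 on its other probe. Sh3rf1, the gene of a scaffold protein of JNK signalling, differed by 1.49 (SE 0.26, limma adjusted p = 0.12; 0.55 on its other probe) and Dapk2, a death-associated protein kinase gene, by 1.41 (SE 0.29, limma adjusted p = 0.19). Ddah2, whose product is related to the enzyme that breaks down asymmetric dimethylarginine, differed by 1.27, Spsb2 by 1.22, Palmd by 1.16 and Myo1d, an unconventional myosin gene, by 1.16. A second Myo1d probe, above background on 1 of 7 arrays, differed by -1.14. Poli, the gene of a translesion DNA polymerase, differed by 0.99. Hmgb1, a chromatin protein that acts as an alarm signal when dying cells release it, read 3.77, 3.88 and 3.96 at 2 months. At 12 months it read 4.86, 4.60, 4.93 and 4.66, a difference of 0.89 (SE 0.19, limma adjusted p = 0.20), with 0.63 and 0.41 on its other probes. Wild-type Hmgb1 differed by -0.39 over the same ages.

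Among the genes that were lower at 12 months, Tfap2e, a transcription factor gene of the AP-2 family, had the smallest p after Igf2bp3 and C4a. It read 2.77, 2.95 and 1.97 in animals 137, 64 and 69. It then read -0.75, -0.15, -1.08 and 0.46 in animals 1109, 638, 702 and 793. The difference was -2.94 (SE 0.49, limma adjusted p = 0.082). A second Tfap2e probe, above background on 2 of 7 arrays, differed by 0.48. Rusc1 differed by -3.36 (SE 0.66, limma adjusted p = 0.18) and Arid5b, a chromatin regulator gene, by -2.75 (SE 0.61, limma adjusted p = 0.20). Their other probes differed less: a second Rusc1 probe, above background on all 7 arrays, by -0.19 and such an Arid5b probe by -0.89. In these 3 genes wild-type animal 552 of 12 months also lay apart from its group: Tfap2e read -0.10 there against 1.73 and 1.78 in the other two. Wasf1, an actin regulator gene, differed by -2.28, Nt5dc2 by -1.54, Usp30, a mitochondrial deubiquitinase gene, by -1.43, and Dis3l2, an exonuclease gene, by -1.37 (-0.52 on its other probe). Orai1, the pore subunit of store-operated calcium entry, differed by -1.32, and Prpf19, a splicing factor gene, by -1.33. Aldh7a1, which acts in lysine breakdown, differed by -1.26 (-0.23 on its other probe), Rsph6a by -1.66 (wild-type -1.37) and Gars, the glycyl-tRNA synthetase gene, by -1.02. For the 8 genes of this paragraph from Wasf1 on other than Rsph6a, the wild-type difference lay between -0.71 and 0.83, with Prpf19 at 0.83 and Wasf1 at -0.71.

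T and NK cell markers had the highest median of the lists of markers and pathways. Each list is described by its count and its median, read beside the median of -0.07 over all genes and the shares above. Of 24 T and NK cell markers measured, 21 were higher at 12 months, with a median difference of 1.18. An unadjusted p under 0.05 was reached by 13 higher and 0 lower, against 7.01% and 10.3% over all genes, and 10 separated the ages upward. The 7-array model called 8 of the 21 it tested, against 0.84% over all genes. The mean level of the list was -3.62 to -3.24 in the 3 younger livers and -2.88 to -1.74 in the 4 older ones. Its median over the alternatives ranged from 0.49, after normexp correction with quantile normalisation, to 1.65. In wild-type mice the list's median difference was 0.69.

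Cd3g and Cd8a encode a subunit of the T cell receptor complex and the coreceptor of cytotoxic T cells. Cd8a read -3.57, -3.44 and -3.55 in animals 137, 64 and 69, and -1.99, -1.48, -0.67 and -0.88 in animals 1109, 638, 702 and 793. All 4 older livers lay above the tightly grouped younger ones. The difference was 2.27 (SE 0.61, limma adjusted p = 0.21), and it was 0.38 in wild-type mice. The other 2 Cd8a probes differed by 0.80 and 2.10. Cd3g read -3.83, -4.33 and -4.01 at 2 months and -2.44, -2.60, -1.29 and -1.10 at 12 months, a difference of 2.20 (SE 0.51, limma adjusted p = 0.20). Gzmb, the gene of the killer cell protease granzyme B, read -3.15, -3.33 and -3.64 against -0.66, -0.93, -1.74 and -1.69, a difference of 2.11 (SE 0.60, limma adjusted p = 0.21). Cxcr6, a chemokine receptor of liver-homing T and NKT cells, differed by 1.89 (SE 0.53, limma adjusted p = 0.21). Cd4, the coreceptor of helper T cells, went the other way by -0.85, with the groups apart.

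B lineage genes were divided. Of 21 measured, 11 were higher and 10 lower, with a median of 0.04, and 7 higher and 3 lower had an unadjusted p under 0.05. Jchain, which joins secreted IgA and IgM, read -1.97, -0.37 and -0.99 at 2 months and 2.02, 1.44, 0.16 and 1.74 at 12 months. Its difference was 2.45 (SE 0.82, limma adjusted p = 0.21), and wild-type mice differed by 3.18. Ms4a1, the gene of the B cell antigen CD20, differed by 1.75, Pou2af1, a B cell coactivator gene, by 1.97 and Fcmr, the IgM receptor gene, by 1.56. Cd79a, a chain of the B cell receptor complex, differed by -1.70 while its partner Cd79b differed by 1.32. Since these partners point in opposite directions, no direction is given for B cells as a whole.

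The medians of the other immune cell lists were below that of the T and NK cell markers. Of 24 macrophage and Kupffer cell markers 14 were higher (median 0.29, and 0.51 without animal 638), and 2 had an unadjusted p under 0.05. The Kupffer cell genes Clec4f and Vsig4 differed by 0.23 and -0.01, the pan-macrophage gene Adgre1 by 0.52 and Mrc1, the mannose receptor gene, by 0.83 (SE 0.32, limma adjusted p = 0.23). Itgam differed by 1.49 (0.31 on its other probe). Trem2 and Gpnmb, genes of lipid-laden macrophages, differed by 0.30 and -0.31. Of 13 neutrophil markers 5 were higher (median -0.15, against 1.19 in wild-type mice). Ceacam1, a lower member of that list, differed by -2.63, and by -2.01 and -1.66 on its other probes. Its 2-month mean was 3.34, while the mean level of the list ran from -3.10 to -1.19 in the younger livers. Whether its difference reflects neutrophils was not tested. Of 16 dendritic cell and MHC class II genes 11 were higher (median 0.50, against 0.98 in wild-type mice). H2-DMb1, a peptide-loading chaperone gene, had the smallest p of the list with a difference of 1.16 (SE 0.53, limma adjusted p = 0.29).

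**Figure D3:**
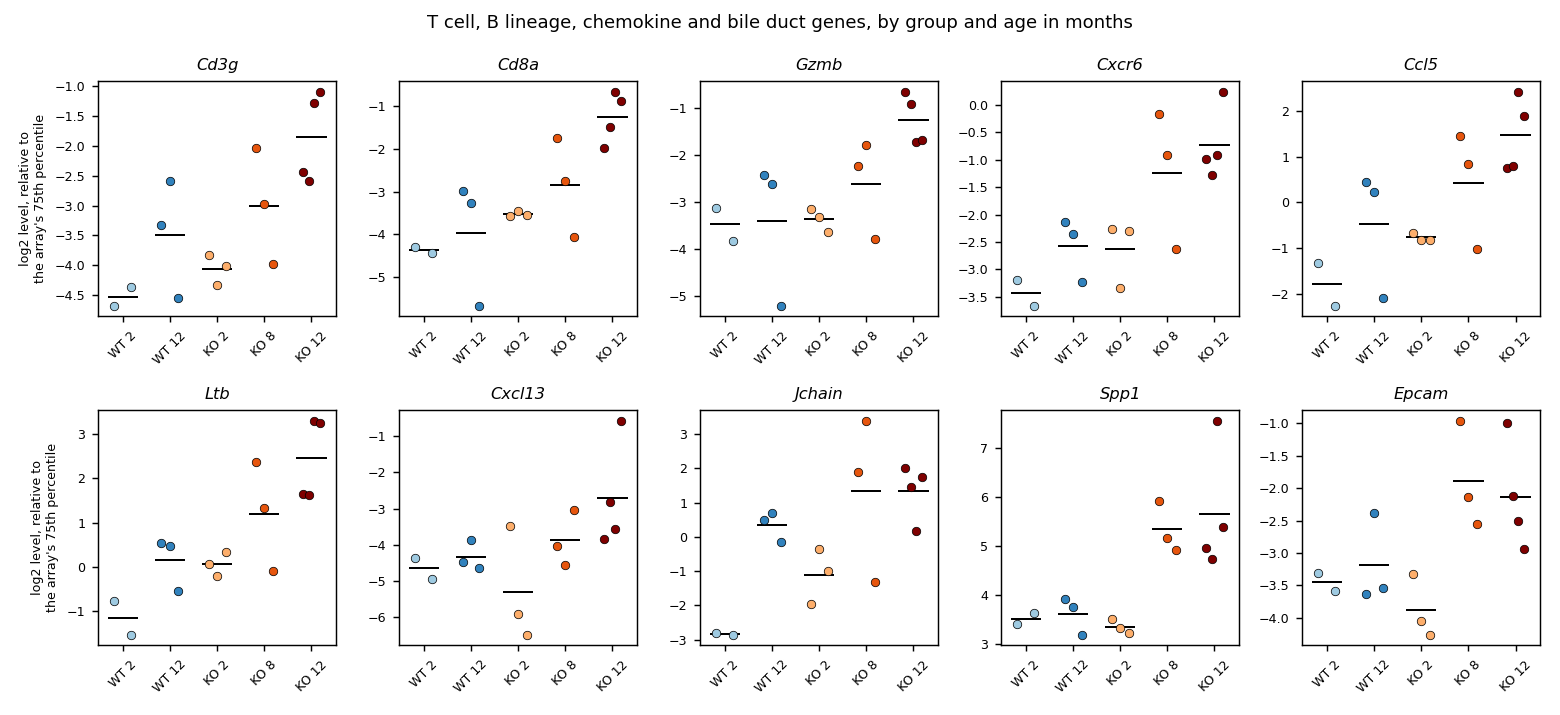
Log2 level relative to the array's 75th percentile for T cell (Cd3g, Cd8a, Gzmb, Cxcr6), chemokine and cytokine (Ccl5, Ltb, Cxcl13), B lineage (Jchain) and duct or progenitor genes (Spp1, Epcam), one dot per mouse and a bar for the group mean. In all panels except Cxcl13 the 4 KO 12 dots lie above the 3 KO 2 dots; the KO 8 dots spread widely, with animal 934 (right dot) lowest in 9 of the 10 panels.

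Chemokine and cytokine genes were mostly higher. Of 28 measured 21 were higher (median 0.95), and 9 higher and 1 lower had an unadjusted p under 0.05. Ltb, lymphotoxin beta of lymphoid tissue, read 0.07, -0.20 and 0.34 in animals 137, 64 and 69 and 1.64, 1.63, 3.30 and 3.24 in animals 1109, 638, 702 and 793. Its difference was 2.38 (SE 0.55, limma adjusted p = 0.20). Ccl5, which T cells and NK cells secrete, differed by 2.23 (SE 0.65, limma adjusted p = 0.21). Cxcl5, a ligand that attracts neutrophils, was not above background on any younger array and was at least 3.35-fold higher at 12 months (limma adjusted p = 0.21). Cxcl13, the B cell attractant, differed by 2.59 (SE 0.75, limma adjusted p = 0.21), with young animal 137 at -3.48 inside the older range of -3.84 to -0.57. Wild-type mice had a median difference of 0.68 over the list.

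Interferon-response genes were higher in 21 of 25 members measured, with a median of 0.56, against -0.19 in wild-type mice. An unadjusted p under 0.05 was reached by 5 higher and 0 lower, 6 separated the ages upward, among them Gbp3, Ifit1 and Ifit3, and 1 separated them downward. The latter was Oas3, a sensor of double-stranded RNA, which read -3.16, -3.36 and -3.46 at 2 months and -5.13, -5.12, -4.14 and -4.64 at 12 months. Its difference was -1.43 (SE 0.73, limma adjusted p = 0.32), and the 7-array model called it lower. Ifi44 had the smallest p. It read -1.32, -1.89 and -1.78 at 2 months and -0.12, -0.72, 0.58 and 0.09 at 12 months, a difference of 1.62 (SE 0.47, limma adjusted p = 0.21). Gbp3, a guanylate-binding protein gene, read 0.75, -0.31 and 0.13 against 1.25, 1.92, 1.97 and 2.29, a difference of 1.67 (SE 0.53, limma adjusted p = 0.21). Ifit1, which recognises viral RNA caps, read -0.27, -0.40 and -0.46 against 0.56, 0.24, 0.20 and 0.60. Ifit3, its partner, read 1.54, 1.79 and 1.16 against 1.99, 2.24, 2.19 and 2.298. Psmb8 and Psmb9, which encode subunits of the immunoproteasome, differed by 0.93 and 0.95, but animal 1109 lay within the 2-month range in both. Stat2 and Irf7, transcription factors of the pathway, differed by 0.06 and -0.20.

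The interferon-stimulated response element that the factors of this pathway bind carries pairs of GAAA. The motif GAAANNGAAA, or TTTCNNTTTC on the other strand, was searched in the 250 bases before the start of transcription (RefSeq, GRCm38.p6), and overlapping matches were counted. It was found for 11 of the 20 list members with a promoter sequence, and in 2.98% of all 32851 promoters. A member counted when any of its promoters held the motif, whereas the share over all promoters counts each promoter, so the units differ. Of the 6 members that separated the ages upward, Gbp3, Ifit1 and Ifit3 held it. The last 160 bases before their starts are shown, with the matches in capitals, to let the sequences be set beside the values above. They are chr3:142559884-142560043, chr19:34640729-34640888 and chr19:34583369-34583528, all on the plus strand. A match is a description of the sequence only.
Gbp3: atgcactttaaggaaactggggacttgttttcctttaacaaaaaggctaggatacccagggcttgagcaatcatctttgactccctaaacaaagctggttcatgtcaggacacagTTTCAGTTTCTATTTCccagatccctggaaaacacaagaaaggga
Ifit1: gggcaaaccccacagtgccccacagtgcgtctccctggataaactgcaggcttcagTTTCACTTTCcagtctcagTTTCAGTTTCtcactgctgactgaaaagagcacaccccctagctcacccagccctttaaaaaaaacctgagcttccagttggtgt
Ifit3: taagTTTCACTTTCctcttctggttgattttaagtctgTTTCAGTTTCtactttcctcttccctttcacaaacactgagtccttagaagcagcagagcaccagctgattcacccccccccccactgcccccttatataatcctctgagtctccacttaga

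Genes of cell death and stress were higher in part. Among 16 BCL-2 family members 11 were higher (median 0.29, and 0.11 without animal 702). Pmaip1, which encodes the Mcl-1 antagonist Noxa, differed by 1.34 (SE 0.56, limma adjusted p = 0.25) and Bad, another pro-apoptotic member, by -1.28 (SE 0.36, limma adjusted p = 0.21). Bcl2l1, the gene of the related survival protein Bcl-xL, differed by 0.26, and Bak1 and Bax by 0.08 and 0.05. Of 20 death receptor and inflammatory death genes 14 were higher (median 0.38), with 5 higher and 0 lower at an unadjusted p under 0.05. Casp1, the inflammasome caspase gene, read -0.23, -0.80 and -0.72 at 2 months and 0.69, -0.05, 2.61 and 1.51 at 12 months (difference 1.77, SE 0.58, limma adjusted p = 0.21). Birc3, an inhibitor of apoptosis gene, differed by 0.87. Of 19 p53 targets 15 were higher (median 0.47), and Trp53inp1 separated the ages with a difference of 1.26 (SE 0.43, limma adjusted p = 0.21; 0.36 on its other probe), while Cdkn1a differed by 0.43 and Mdm2 by 0.15.

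Of 20 senescence genes measured 14 were higher (median 0.50, against 0.60 in wild-type mice). The list's median was 0.197 without animal 137, and 5 higher and 2 lower members had an unadjusted p under 0.05. Cdkn2b, which encodes the cell cycle inhibitor p15, read -3.27, -2.71 and -3.53 at 2 months. At 12 months it read -0.79, -2.37, 3.21 and -1.34 in animals 1109, 638, 702 and 793. The difference of 2.84 (SE 0.93, limma adjusted p = 0.21) leaned on animal 702, and wild-type mice differed by 2.295. Cdkn2a, whose locus encodes p16 and p19, was well above background on 2 of 4 older arrays and on 0 of 3 younger ones, and was at least 1.32-fold higher. Its levels were highest in animals 702 and 793, at -4.57 and -4.61. Cdkn1b, the gene of the inhibitor p27, differed by -1.81 (SE 0.67, limma adjusted p = 0.22), with animal 638 at -2.46 above all 3 younger livers. Immediate early genes were higher in 17 of 22 (median 1.03, against 0.44 in wild-type mice), 6 of them with an unadjusted p under 0.05. Only 1 of the 22, Fosb, separated the ages upward, against 6.65% over all genes. Fosb, not above background at 2 months, was at least 5.001-fold higher (limma adjusted p = 0.20). Of 20 Hippo, Notch and TGF-beta targets 16 were higher (median 0.69, against 0.67 in wild-type mice), and in each of the 6 with an unadjusted p under 0.05 the ages overlapped.

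Proliferation genes did not separate the ages. Of 28 mitosis and spindle genes 6 were higher and 22 lower (median -0.14), and 0 had an unadjusted p under 0.05 in the limma model or passed in the 7-array model. Their mean level spread from -2.08 to 0.54 in the 3 younger livers and from -2.21 to 0.26 in the older ones. Cdc20, a mitotic activator gene, read 2.52, 4.66 and 1.46 at 2 months and 0.98, 0.60, 3.01 and 2.64 at 12 months. Of 24 S phase genes 9 were higher (median -0.10), also with 0 at an unadjusted p under 0.05. Leaving out 1 knockout array gave medians of -0.76 to 0.54 for mitosis genes and -0.34 to 0.28 for S phase genes. DNA damage response genes had a median of -0.26, which was 0.19 without animal 64.

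Of 20 bile duct and progenitor markers 12 were higher (median 0.48, against 0.46 in wild-type mice), 6 of them, Anxa13 included, and 1 lower gene with an unadjusted p under 0.05. The list's median was 0.16 without animal 137. Spp1, osteopontin, which duct cells and activated macrophages secrete, read 3.50, 3.32 and 3.22 in animals 137, 64 and 69. It read 4.95, 4.72, 7.57 and 5.39 in animals 1109, 638, 702 and 793. Its difference was 2.31 (SE 0.53, limma adjusted p = 0.20) and the wild-type difference was 0.11. Epcam, an adhesion molecule of ducts and progenitors, differed by 1.74 (SE 0.48, limma adjusted p = 0.21), Cldn7 by 1.09 and Cd24a by 1.40. The defining duct cytokeratins Krt19 and Krt7 differed by 0.18 and -0.11, and the duct transcription factor gene Sox9 by 0.62. Endothelial markers were higher in 15 of 21 (median 0.55, against 0.42 in wild-type mice), 7 of them with an unadjusted p under 0.05. Young animal 64 lay low across the list, with a mean level of -0.54 beside 0.30 and 0.15 in animals 137 and 69, while the older livers ran from 0.09 to 0.53. The list's median was 0.23 without animal 64 and 0.20 over the mean of probes. Cd34 differed by 1.73 (SE 0.55, limma adjusted p = 0.21) and Emcn by 1.002 (SE 0.28, limma adjusted p = 0.21), while the pan-endothelial gene Pecam1 differed by 0.14.

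Stellate cell and matrix genes went both ways. Of 28 measured 18 were lower and 10 higher (median -0.38, against 0.50 in wild-type mice), with 5 lower and 0 higher at an unadjusted p under 0.05, against 10.3% lower over all genes, 6 separated the ages downward and 1 upward. With arrays centred on their median the list stood at -0.05, beside 0.25 for all genes. Col6a1, a collagen VI gene, read -0.11, 0.71 and 0.58 at 2 months and -0.67, -0.23, -1.79 and -1.35 at 12 months (difference -1.40, SE 0.56, limma adjusted p = 0.24). Loxl2, a collagen cross-linking enzyme gene, differed by -0.99 and Col4a2 by -0.81. Col1a1, the main fibrillar collagen gene, differed by -0.85 (SE 0.79, limma adjusted p = 0.59). Acta2, smooth muscle actin of activated stellate cells, differed by -1.11 on its brightest probe (SE 0.35, limma adjusted p = 0.21), but by 0.18 when its probes were averaged. Among the higher members, Pdgfrb, the receptor that marks stellate cells and pericytes, read 1.67, 1.77 and 1.56 (animals 137, 64 and 69) against 2.01, 2.299, 1.85 and 2.16 (1109, 638, 702 and 793), a difference of 0.42 (SE 0.37, limma adjusted p = 0.57). Col5a2, a fibrillar collagen gene, differed by 1.64 and Vim, the mesenchymal filament gene, by 1.02, with animal 638 within or below the 2-month range in both.

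Of 27 acute phase and complement genes 23 were lower (median -0.50, against -0.06 in wild-type mice), and 7 lower and 0 higher had an unadjusted p under 0.05. Without young animal 64 the median was -0.25. Saa1, serum amyloid A, read 6.13, 9.56 and 6.63 at 2 months and 6.41, 5.15, 5.58 and 4.79 at 12 months, a difference of -1.96 (SE 0.70, limma adjusted p = 0.22) that leaned on young animal 64. Itih4 separated the ages with a difference of -1.11 (SE 0.33, limma adjusted p = 0.21). Of 32 cytochrome P450 and xenobiotic genes 23 were lower (median -0.65, against -0.37 in wild-type mice), with 9 lower and 0 higher at an unadjusted p under 0.05. Cyp2c55 read 1.11, 2.36 and 2.67 against -0.72, 0.08, 0.30 and -0.02, a difference of -2.14 (SE 0.45, limma adjusted p = 0.19), and the wild-type level was -0.61 at 2 months. Cyp3a44 differed by -1.18 on its brightest probe and by 0.73 over the mean of its probes, and Cyp3a genes are similar enough in sequence that the probes may share signal.

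Of 29 hepatocyte identity genes 21 were lower (median -0.25, against -0.26 in wild-type mice, and -0.11 without animal 702). Apob, the structural protein of very low density lipoprotein, read 6.63, 7.45 and 7.03 at 2 months and 3.95, 6.57, 5.55 and 5.59 at 12 months, a difference of -1.62 (SE 0.47, limma adjusted p = 0.21). Foxa2, a hepatocyte transcription factor gene, differed by 1.04 in the other direction. Bile acid genes had a median of -0.14. Slc10a1, the bile acid uptake transporter, differed by -1.26 (SE 0.39, limma adjusted p = 0.21) and Cyp8b1, the 12-alpha-hydroxylase, by -2.77 (SE 0.92, limma adjusted p = 0.21). Animal 702 lay at -3.44 for Cyp8b1 and at -2.24 for Cyp7a1, the rate-limiting enzyme gene of bile acid synthesis, whose other 3 older levels were 3.04 to 4.60. Of 21 pericentral genes 17 were lower (median -0.57), and Glul, the glutamine synthetase of the innermost pericentral hepatocytes, differed by 0.02 on its brightest probe and -1.51 on its other one. The list's mean level was 1.01 in animal 702 and 2.65 to 3.60 in the other 3 older livers, against 2.83 to 3.32 at 2 months. Without animal 702 the list's median was -0.0085, and without animal 137 it was -0.26. Periportal urea and amino acid genes had a median of -0.17.

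Male-biased liver genes were lower in 17 of 19 (median -0.91, against -0.70 in wild-type mice) and female-biased genes higher in 18 of 25 (median 0.72). Xist was above background in 1 of 3 younger and 2 of 4 older livers. After adjustment for the Xist signal the median differences were -0.58 for the male-biased and -0.04 for the female-biased list, so the latter changed sign. Leaving out 1 knockout array gave -1.62 to -0.46 for the male-biased and -0.20 to 1.48 for the female-biased list. Of 17 adipocyte and lipid droplet genes 13 were higher (median 0.45, against 1.58 in wild-type mice), with 0.75 without animal 702 and 0.28 without animal 793. Cidec, which fuses lipid droplets, read -1.57, 0.80 and -0.01 at 2 months and 4.56, 2.52, 3.24 and 3.52 at 12 months (difference 3.72, SE 1.04, limma adjusted p = 0.21), and wild-type mice differed by 3.35. Lpin2, a phosphatidate phosphatase gene of triglyceride synthesis, differed by -1.56 (SE 0.35, limma adjusted p = 0.20), and the ages did not overlap.

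**Figure D4:**
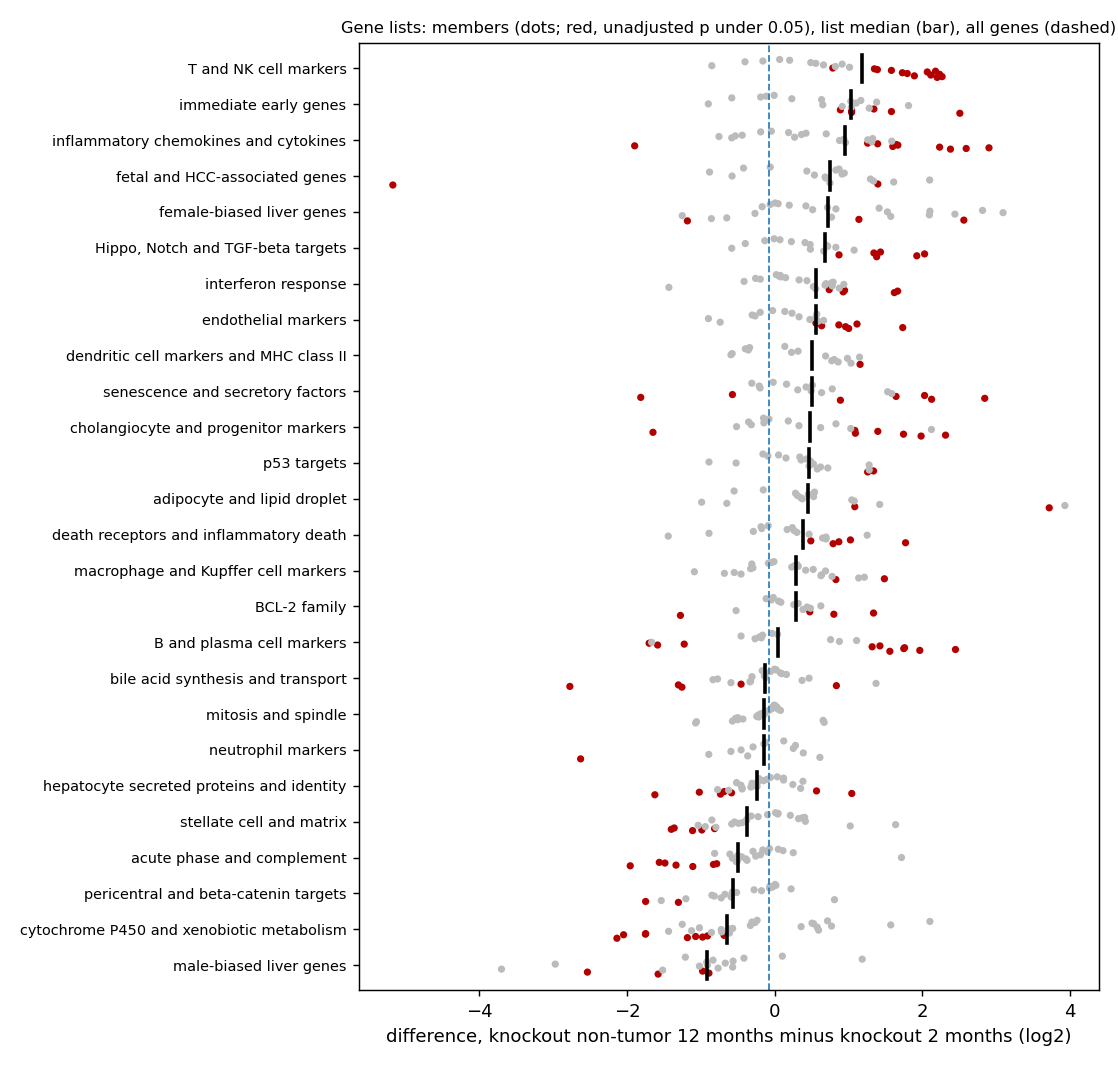
Log2 difference of knockout liver at 12 against 2 months for the members of 26 gene lists; grey dots are members, red dots members with an unadjusted p under 0.05, black bars list medians and the dashed line the median of all genes (-0.07). T and NK cell markers have the highest median (1.18) and male-biased liver genes the lowest (-0.91).

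Fetal and tumor-associated genes were uneven among the older livers. Of 19 measured 14 were higher (median 0.75, and 0.098 without animal 702 or 0.26 without animal 137), with 1 higher and 1 lower at an unadjusted p under 0.05. Afp, alpha-fetoprotein, read -0.27, 1.16 and 0.90 at 2 months and -0.30, 1.08, 3.07 and 1.30 at 12 months. Gpc3, a proteoglycan of liver cancer cells, read 1.29 in animal 702 and -4.28 to -3.52 in the other 3, against -4.36 to -3.77 at 2 months. Igf2 read 3.45 in animal 793 and -4.24 to -1.69 in the other 3. Golm1, a Golgi protein gene, read 4.37 in animal 702 and 0.35 to 1.64 in the others. The high levels of Gpc3 and Golm1 were in animal 702 and that of Igf2 was in animal 793.

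The medians of the remaining lists ran from -0.45 to 0.25. They were respiratory chain (0.00), glycolysis and gluconeogenesis (-0.04), NRF2 targets (-0.07), lipogenesis (-0.09), cholesterol synthesis (-0.09), fatty acid oxidation (-0.11), core clock (-0.13), unfolded protein stress (-0.18), imprinted growth genes (-0.24), growth hormone axis (-0.02), glucocorticoid-responsive genes (-0.02), iron handling (0.25) and erythroid markers (-0.45, 7 measured, and 0.051 without animal 64).

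The question of whether knockout liver ages differently from wild-type liver was addressed by the difference between the 2 differences with age, in the same model. No gene passed: 0 of 27099 (0%), with a lowest limma adjusted p of 0.13 and 2582 genes at an unadjusted p under 0.05. Without knockout animal 638 there were 301 calls, and with all 18 arrays kept there were 39 with array weights. The cause of these differences was not tested. Wild-type animals 552 and 1110 were the only arrays of the 18 scanned on the other day. With scan day as a block, the wild-type level at 12 months therefore rested on animal 641 alone. The count under that block is not read as a difference between genotypes. Across genes, the difference with age in knockout and in wild-type mice had a Pearson correlation of 0.26 over 27099 genes, which share the arrays of each group and are not independent replicates.

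Among the genes with the smallest p for this difference, Poli differed by 0.99 in knockout and -0.72 in wild-type mice, a difference of 1.71 (SE 0.34, limma adjusted p = 0.33). Rnf25, a ubiquitin ligase gene, read -1.11, -1.13 and -1.10 in young and -2.299, -2.28, -1.83 and -1.58 in old knockout liver, while wild-type means were -3.07 and -1.54 (difference of differences -2.42, SE 0.39, limma adjusted p = 0.14). Spsb3 had -2.32 (SE 0.44, limma adjusted p = 0.31). Tubb2a, a beta-tubulin gene, differed by 0.31 in knockout (-0.11 over the mean of its probes) and 3.67 in wild-type mice. Its 3 young knockout levels were 6.64, 6.73 and 6.74, close to the wild-type mean of 6.76 at 12 months and above that of 3.10 at 2 months.

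**Figure D5:**
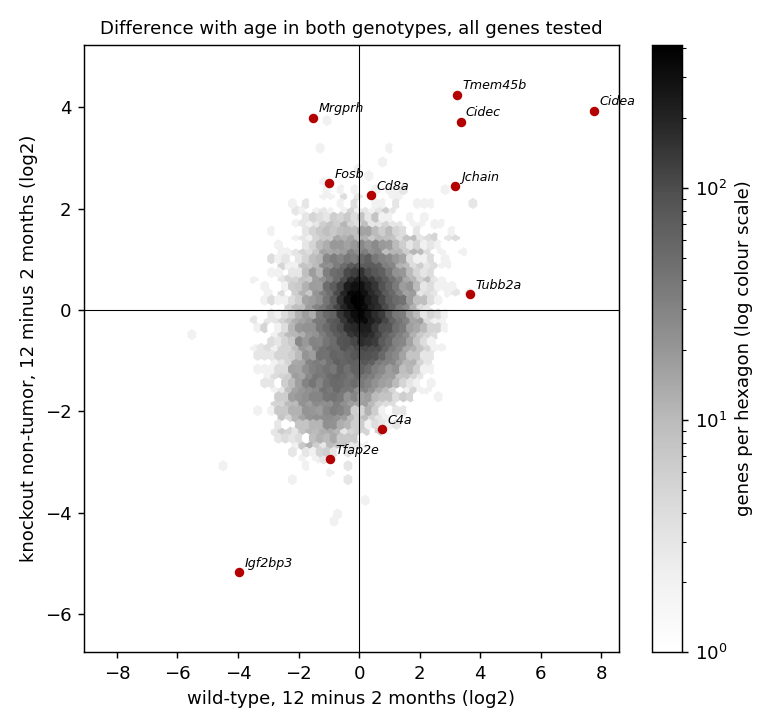
Difference between 12 and 2 months in wild-type (x axis) and knockout non-tumor liver (y axis), log2, for all genes tested; shading is the number of genes per hexagon on a log colour scale and red dots are named genes. Igf2bp3 is low on both axes (-3.96 and -5.17) and Tmem45b, Cidec and Jchain are high on both, whereas C4a lies at 0.77 and -2.35.

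At 8 months, non-tumor knockout liver lay nearer the 12-month level for Igf2bp3, C4a, Tfap2e and Spp1, and between the ages for Cd8a and Gzmb. Igf2bp3 had a mean of -6.01 at 8 months beside -1.77 at 2 and -6.94 at 12 months. C4a had -5.33 beside -3.03 and -5.38, Tfap2e -0.08 beside 2.56 and -0.38, and Spp1 5.34 beside 3.34 and 5.66. Cd8a had -2.85 beside -3.52 and -1.25, and Gzmb -2.62 beside -3.37 and -1.26. For the T cell genes the 8-month livers were spread, with animal 934 at -4.05 for Cd8a and animal 1347 at -1.74. These means use the same 2-month arrays, so they are set side by side without a test.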

How the data were processed

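The deposited files are scanner outputs of Agilent Feature Extraction 10.5.1.1, per the file headers, with intensity values per spot that the authors did not normalise between arrays. A matrix of log2 values that the authors deposited served as an alternative; its columns rank probes almost as each array's median spot signals do and have medians of 6.565 to 6.577, while its centring and normalisation are not given in the sources used here; limma is the only tool in the submitters' processing notes. From the processed signals, log2 values of 43379 non-control spots were averaged over unflagged spots into 41174 probes and the 75th percentile of each array was subtracted. Probes were named through their RefSeq accession (GRCm38.p6), which gave 24375 probes a symbol and 16799 none. A gene was its brightest probe and was kept when well above background on at least 2 of 18 arrays, or at least 3 of 7 in the model of the 7 arrays. The 18 arrays without tumor tissue were fitted as 6 groups with limma 3.58.1 in R 4.3.3 (12 residual degrees of freedom; 5 with the 7 arrays alone), with Benjamini-Hochberg adjustment over all genes at 0.05. Replicates are animals, and p-values measure the spread between them. The files hold median but no mean spot signals, so normexp correction (offset 50) used median signals. The model was tested on simulated data. Alternatives changed the arrays fitted, background correction, scaling, filter, probe rule, prior, array weights, slide, scan day, Xist as a covariate, or left out 1 array; those of the model of 7 arrays were added after seeing the data. No gene set was tested. The members, the 43 lists and the named genes were chosen with earlier results of these data known. Named were Mcl1, up to 15 genes each way by smallest p among those whose ages did not overlap and that were measured above background throughout the higher group, up to 6 each way for the difference between genotypes, up to 4 members per list and a panel of 30 genes, of which Mup20 and Cps1 had no measured probe under that symbol. Further list members named beside them, the interferon genes with promoter matches among them, were chosen after their values were seen. For arrays, the number of animals limits the precision. Samples of tumors were not analysed here beyond the alternative that includes all 25 arrays. Results for some genes that the rule names are not reported here.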

Additional observations from a re-analysis of the deposited data

Results flagged for a closer look

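In 14 of 154 named genes, 1 of the 4 livers of 12 months lay far from the other 3, with a gap to its nearest neighbour above the critical share of the group's whole range in Dixon's test. Chance flags about 1 in 20 groups. Animal 1109 was lowest for Mrgprh, with a gap of 0.970 of the range, and C4a (0.972). Animal 638 was lowest for Myo1d, with a gap of 0.869 of the range, and Cd34 (0.874). Animal 1109 was highest for Cidea, with a gap of 0.885 of the range, Akr1d1 (0.943) and Cxcl5 (0.911). Animal 702 was lowest for Plin4, with a gap of 0.873 of the range, and Cyp8b1 (0.852). Animal 793 was lowest for Cldn7, with a gap of 0.848 of the range. Animal 638 was highest for Loxl2, with a gap of 0.865 of the range, and Gdf15 (0.904). Animal 702 was highest for Col4a2, with a gap of 0.886 of the range, and Gpc3 (0.864). Each of these values is a property of single livers and was not tested further.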

How the results depend on the processing

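The 2 genes past the threshold for 12 against 2 months became 1324 with the 7 arrays alone, 6 with all 25 arrays, 136 with normexp with quantile normalisation, 13 with quantile normalisation, 17 with median scaling, 28 with the authors' series matrix, 0 with no filter on dim genes, 4 with a trended robust prior, 3997 with array weights, 0 with slide as a random block, 880 with scan day as a block and 7 with the Xist covariate. Leaving out 1 array gave 0 to 880, the highest without wild-type animal 641 and the next, 844, without knockout animal 638. Animal 641 is the one 12-month wild-type array of its scan day, and the scan-day block gave the same count as leaving it out.

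The 0 genes for the difference between genotypes became 5 with normexp with quantile normalisation, 1 with quantile normalisation, 2 with the authors' series matrix, 1 with a filter on every array, 1 with a trended robust prior, 39 with array weights and 231 with scan day as a block. Leaving out 1 array gave 0 to 301, the highest without animal 638.

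The 1324 genes of the 7 arrays alone, whose alternatives were chosen after seeing the data, became 0 with normexp with quantile normalisation, 720 with quantile normalisation, 568 with median scaling, 171 with the authors' series matrix, 436 with a filter on every array, 665 with a trended robust prior, 3768 with array weights and 2101 with slide as a random block. Leaving out 1 array gave 0 to 3458, the highest without animal 638. The share of higher calls was 14.3% there, 32.8% with quantile normalisation, 36.8% with median scaling and 25.1% with the series matrix. The estimated correlation within slides was -0.18 there and 0.15 with 18 arrays.

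Some single genes past no threshold took the other sign, with the difference in parentheses. They were, with the Xist covariate, Glul (-0.11), with the mean of probes Acta2 (0.18), Cyp3a44 (0.73), Fosl2 (-0.023), Glul (-0.75), Trem2 (-0.010) and Tubb2a (-0.11), with median scaling Gpnmb (0.018) and Ppara (0.085), and with normexp with quantile normalisation Glul (-0.12). They were also, with quantile normalisation, Alb (0.016) and Glul (-0.027), with slide as a random block Glul (-0.032), and with the authors' series matrix Alb (0.022), Glul (-0.20) and H2-Ob (-0.24). When 1 array was left out the difference ranged over both signs for Arntl (-0.41 to 0.66), Cyp7a1 (-1.58 to 0.70), Dbp (-2.30 to 0.18), Gdf15 (-0.39 to 0.85), Glul (-0.44 to 0.65), Golm1 (-0.43 to 0.91), Gpnmb (-0.98 to 0.21), Igf2 (-0.65 to 2.09), Ngp (-1.55 to 0.0518), Ppara (-0.50 to 0.00124), Tff3 (-2.19 to 0.41), Top2a (-1.10 to 0.29), Trem2 (-0.16 to 0.62), Ube2c (-1.08 to 0.10) and Xist (-0.11 to 3.82). The cause was not tested.

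Slide as a fixed block could not be fitted, since no slide holds knockout arrays of both ages. No paired analysis was possible because the 2 ages are different mice and the arrays carry no shared replicate number. With 3 and 4 mice per group, and dim genes near background, smaller differences were not detectable at this precision.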
